A study of Homo sapiens with 2 samples.

Results

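Genes whose products bind, trim or regulate the poly(A) tail were examined as RNA targets of the CCCH zinc finger proteins ZC3H7B and ZC3H7A. The 10 genes were chosen by name, as PABPC1, PABPC4, PABPN1, PAIP1, PAIP2, PAN2, PAN3, PARN, TOB1 and TOB2. Of these, 9 were listed in both libraries, among 10145 genes listed in either, and 71.1% of those 10145 were listed in both. PAN2 was listed in neither library, and whether no cluster was called on it cannot be told from the tables.

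The samples were PAR-CLIP libraries from HEK293 cells, an established human embryonic kidney line. One library came from cells expressing Flag/HA-tagged ZC3H7B and the other from cells expressing Flag/HA-tagged ZC3H7A, in both cases after 24 h of induction with 1 µg/mL doxycycline, 16 h of labelling with 100 µM 4-thiouridine and irradiation at 365 nm. Both proteins were overexpressed with a tag, there was 1 library for each, and neither a control library nor a measure of RNA abundance was analysed here. No value therefore has a replicate check, no difference between the proteins was tested, and binding and RNA level cannot be told apart.

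In PAR-CLIP, 4-thiouridine crosslinked to a protein is read as C in place of T, so T-to-C conversions in the reads mark contact. Overlapping reads are grouped into clusters, and the deposited values count clusters, reads in clusters and distinct reads in clusters for each gene. The ZC3H7B library held 2409465 reads (1212989 distinct) in 99805 clusters on 9159 genes, and the ZC3H7A library held 3779662 reads (300342 distinct) in 51808 clusters on 8204 genes. Each distinct read was counted 1.99 times on average in the ZC3H7B library and 12.6 times in the ZC3H7A library. Intervals below are exact, at 95%, and cover counting error only. Copies of a read made by PCR are not independent molecules, which makes the intervals on reads narrower than they should be. The tagged transcripts had more reads in their own libraries, with 158 reads on ZC3H7A in the ZC3H7B library against 82704 in the ZC3H7A library, and 3768 reads on ZC3H7B in the ZC3H7B library against 1362 in the ZC3H7A library. Of 6 genes looked up for the cell line, LIN28B, SOX4 and NEFL had clusters in both libraries, and NEFM, PAX2 and WT1 were listed in neither.

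The poly(A) tail of a messenger RNA is coated by poly(A)-binding proteins, which in the cytoplasm contact the initiation factor eIF4G and help recruit ribosomes. Shortening of the tail starts decay of most messenger RNAs. PAN2-PAN3 trims long tails, the CCR4-NOT complex removes the rest, and PARN trims tails of particular RNAs. PAIP1 and PAIP2 bind PABPC1 and stimulate or repress translation, and TOB1 and TOB2 link PABPC1 to CCR4-NOT. The ratio of a gene is given below as log2 of its value in the ZC3H7B library over that in the ZC3H7A library, scaled to place the median gene at 0. That median was taken over 7168 genes that had clusters in both libraries and 20 or more reads in all. The word higher is used of reads only where the whole interval of a gene lay beyond 2-fold.

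Among the 9 listed genes, reads were higher in the ZC3H7B library for 1, PAN3, and higher in the ZC3H7A library for 1, PABPN1. Over all 7168 genes 18.2% were higher in the ZC3H7B library and 18.0% in the ZC3H7A library, so the shares of the 9 genes (1 of 9 each way) lay near or below the background. Their median log2 ratio of reads was 0.35, beside 0 for all genes. With distinct reads it was -0.18, and PAN3 was the 1 gene still counted (7.28% of all genes were higher in the ZC3H7B library in that unit, and 10.1% in the ZC3H7A library). With mean reads per cluster TOB2 was the 1 gene beyond 2-fold, on the ZC3H7B side, where 6.18% of all genes lay, against 4.65% on the ZC3H7A side. With numbers of clusters 0 of the 9 genes passed, beside 0.321% of all genes on the ZC3H7B side and 0.223% on the ZC3H7A side. Lengths of transcripts were not used, so read sums are compared for the same gene between libraries and not between genes.

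**Figure D1:**
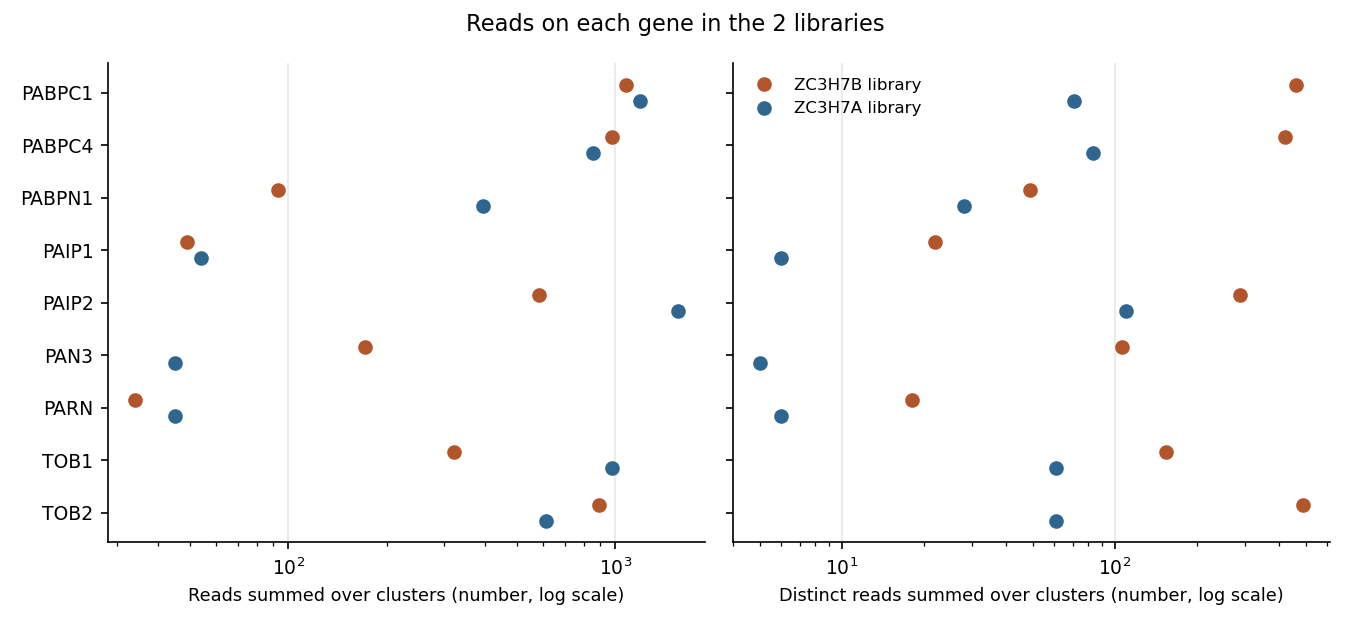
Reads (left) and distinct reads (right) summed over the clusters of each gene, on log axes, with 1 point for each library. Reads lay farthest apart for PAN3 (172 in the ZC3H7B library and 45 in the ZC3H7A library) and PABPN1 (93 and 394), and unscaled distinct reads were more numerous in the ZC3H7B library for all 9 genes.

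PABPC1, the main cytoplasmic poly(A)-binding protein, had 1078 reads in 22 clusters in the ZC3H7B library and 1187 reads in 8 clusters in the ZC3H7A library. Scaled to the median gene, its log2 ratio was 0.35 (0.23 to 0.47), within 2-fold, and it was 0.65 (0.28 to 1.03) with distinct reads. By mean reads per cluster it lay on the other side of 0, at -0.13 (-0.25 to -0.01), while its ratio of clusters was 0.53 (-0.69 to 1.91). Before scaling, the median cluster on the gene held 17 reads in the ZC3H7B library and 99 in the ZC3H7A library.

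PABPC4, an inducible relative of PABPC1, had 974 reads in 22 clusters in the ZC3H7B library and 853 reads in 12 clusters in the ZC3H7A library. The log2 ratio of PABPC4 was 0.68 (0.55 to 0.82) with reads, 0.29 (-0.06 to 0.64) with distinct reads and -0.05 (-1.13 to 1.10) with clusters. No interval of either cytoplasmic gene lay beyond 2-fold in any of the 4 units.

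PABPC1 and PABPC4 carried most of the 5′ UTR clusters found on the 9 genes. PABPC1 had 4 of 22 clusters there (18.2%, 5.19 to 40.3%) in the ZC3H7B library and 2 of 8 (25.0%, 3.19 to 65.1%) in the ZC3H7A library. PABPC4 had 4 of 22 (18.2%, 5.19 to 40.3%) and 4 of 12 (33.3%, 9.92 to 65.1%) in the same libraries. Having at least 4 clusters in the 5′ UTR was uncommon, at 32 of 9159 genes (0.349%) in the ZC3H7B library and 38 of 8204 (0.463%) in the ZC3H7A library. Only 12 of the 7218 genes listed in both libraries (0.166%) had at least 4 in each, and PABPC4 was among them. This threshold was chosen after the values were seen, and it serves as a description. All genes had a median of 7 clusters in the ZC3H7B library and 4 in the ZC3H7A library. Many genes could therefore hardly reach the threshold, and these shares were not matched for the number of clusters. As background, the PABPC1 messenger RNA is known to carry an A-rich stretch in its 5′ UTR to which the protein itself binds.

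Together the 9 genes had 9 of 110 clusters in the 5′ UTR in the ZC3H7B library (8.18%, 3.81 to 15.0%) and 8 of 56 in the ZC3H7A library (14.3%, 6.38 to 26.2%). All other genes had 0.763% (0.710 to 0.819%) in the ZC3H7B library and 3.60% (3.44 to 3.76%) in the ZC3H7A library. Clusters of 1 gene come from 1 transcript and are not independent, so these pooled intervals are narrower than they should be. The interval of the 9 genes lay above that of all other genes in each library, and this difference was not tested. It did not do so without PABPC1 and PABPC4. The remaining genes had 1 of 66 clusters there (1.52%, 0.038 to 8.16%) in the ZC3H7B library and 2 of 36 (5.56%, 0.680 to 18.7%) in the ZC3H7A library. PABPC1 and PABPC4 supplied 8 of the 9 clusters in the ZC3H7B library and 6 of the 8 in the ZC3H7A library. The rest came from PAIP2, with 1 in each library, and TOB2, with 1 in the ZC3H7A library. A 5′ UTR cluster in both libraries was found for 3 of the 9 genes, PABPC1, PABPC4 and PAIP2, and for 3.75% of the 7218 genes listed in both. The latter share was likewise not matched for the number of clusters.

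The coding sequences of the pair differed in how far their share moved between the libraries. PABPC4 had 15 of 22 clusters in coding sequence (68.2%, 45.1 to 86.1%) in the ZC3H7B library and 8 of 12 (66.7%, 34.9 to 90.1%) in the ZC3H7A library. PABPC1 had 6 of 22 (27.3%, 10.7 to 50.2%) and 5 of 8 (62.5%, 24.5 to 91.5%), intervals that overlap. In the 3′ UTR PABPC1 had 4 clusters in the ZC3H7B library and 1 in the ZC3H7A library, and PABPC4 had 2 and 0.

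**Figure D2:**
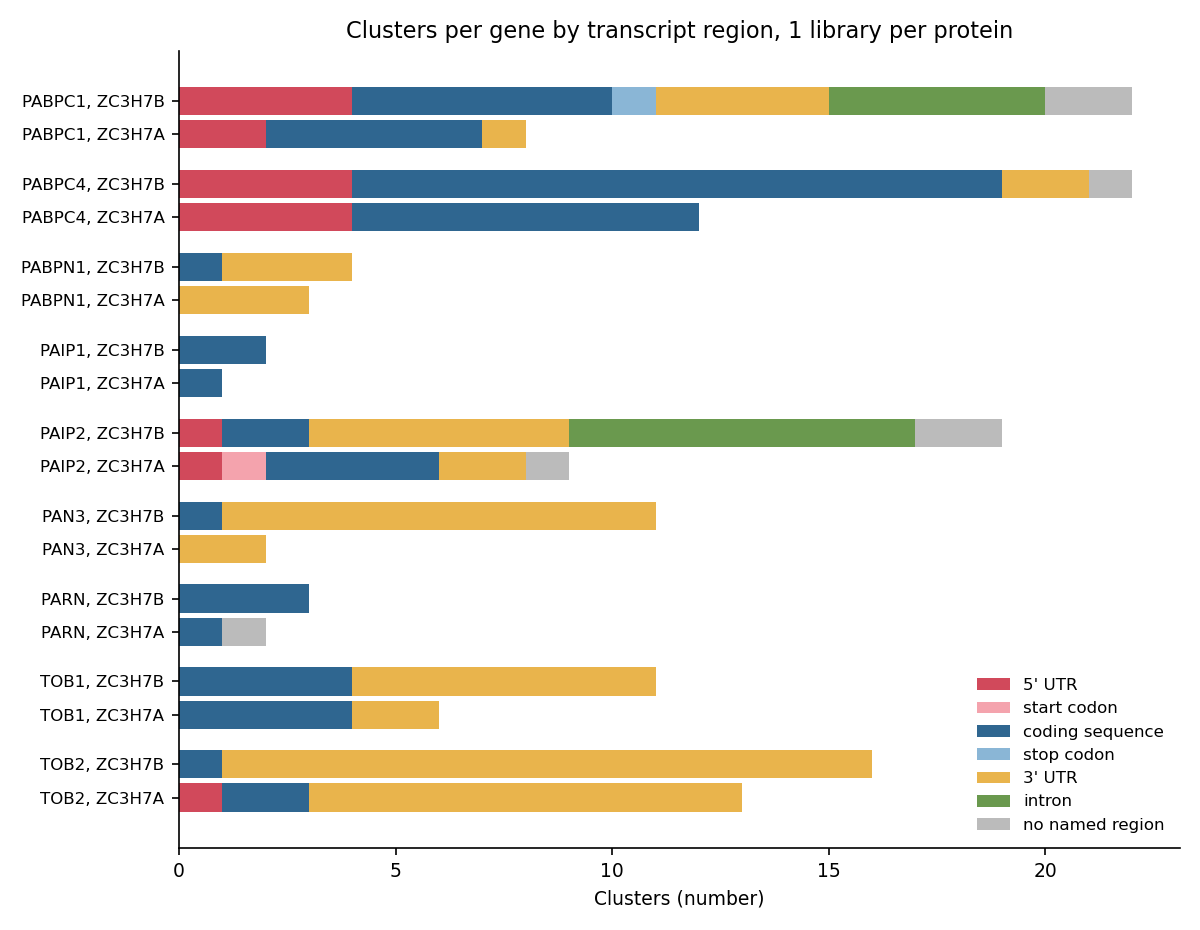
Number of clusters on each gene, coloured by transcript region, with the ZC3H7B library above the ZC3H7A library for each gene. Clusters in the 5′ UTR (red) lay mainly on PABPC1 and PABPC4. Those in the 3′ UTR (yellow) led on PAN3, TOB2 and PABPN1 in both libraries and on TOB1 in the ZC3H7B library. Intronic clusters (green) were present on PABPC1 and PAIP2 in the ZC3H7B library.

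Reads of PABPC1 are uncertain between copies, because the gene has processed pseudogenes. PABPC1P4 was listed with 165 reads in 5 clusters in the ZC3H7B library and 133 reads in 1 cluster in the ZC3H7A library. PABPC1P1 and the intronless relative PABPC3 were listed in the ZC3H7B library alone, with 5 reads each. How the authors placed reads that match several copies is not given in the sources used here.

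PABPN1, the nuclear poly(A)-binding protein that sets tail length during polyadenylation, had 93 reads in 4 clusters in the ZC3H7B library and 394 reads in 3 clusters in the ZC3H7A library. Its log2 ratio of -1.59 (-1.93 to -1.26) was 3.01-fold towards the ZC3H7A library. In that library the median cluster held 17 reads, so at least 360 of the 394 reads (91.4%) lay in 1 cluster. With distinct reads the interval, -1.25 (-1.95 to -0.52), no longer lay beyond 2-fold, nor did it with mean reads per cluster, at -1.03 (-1.37 to -0.70). The 3′ UTR held 3 of its 4 clusters in the ZC3H7B library and 3 of 3 in the ZC3H7A library. The absence of a coding cluster in the ZC3H7A library was shared by 12.6% of genes with at least 3 clusters there. That share covers genes with more clusters too, and the share among genes with just 3 was not counted. PABPN1 neighbours BCL2L2, with which it can be transcribed as a read-through, and BCL2L2 had 204 reads in 18 clusters in the ZC3H7B library and 127 reads in 4 clusters in the ZC3H7A library.

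Of the proteins that bind PABPC1, the translational repressor PAIP2 was well covered and the activator PAIP1 was not. PAIP2 had 582 reads in 19 clusters in the ZC3H7B library and 1553 reads in 9 clusters in the ZC3H7A library. At -0.92 (-1.06 to -0.78), its log2 ratio lay towards the ZC3H7A library but within 2-fold, with 1 end of the interval beyond it. The ratio was -0.67 (-0.99 to -0.34) with distinct reads. In clusters it lay at 0.15 (-1.06 to 1.48).

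PAIP2 had clusters in introns, coding sequence and both UTRs. Introns held 8 of 19 clusters (42.1%, 20.3 to 66.5%) in the ZC3H7B library and 0 of 9 in the ZC3H7A library, which allows a share of up to 33.3%. Coding sequence held 2 of 19 (10.5%, 1.30 to 33.1%) in the ZC3H7B library and 4 of 9 (44.4%, 13.7 to 78.8%) in the ZC3H7A library. The 3′ UTR held 6 and 2 clusters in these libraries, and the ZC3H7A library also had 1 cluster at the start codon. The intervals of the coding shares overlap, the limit in introns lies above the lower bound in the ZC3H7B library, and neither difference was tested.

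Intronic clusters were likewise found on PABPC1 in the ZC3H7B library, with 5 of 22 (22.7%, 7.82 to 45.4%), and not in the ZC3H7A library, where 0 of 8 allows up to 37.5%. Across the 9 genes introns held 13 of 110 clusters (11.8%, 6.45 to 19.4%) in the ZC3H7B library and 0 of 56 in the ZC3H7A library. The latter allows up to 5.36% by a limit of 3 counts and up to 6.38% by the exact interval. All other genes had 6.12% and 6.19% of their clusters in introns in the same libraries, and the exact interval in the ZC3H7A library held the 6.19%. The pattern of 0 intronic clusters in the ZC3H7A library and at least 5 in the ZC3H7B library was shown by PABPC1 and PAIP2. In all, 46 of 7218 genes (0.637%) showed it, again by a threshold chosen after the values were seen. Genes with fewer than 5 clusters in the ZC3H7B library cannot show it, and the share was not matched for the number of clusters.

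PAIP1 had 49 reads in 2 clusters in the ZC3H7B library and 54 reads in 1 cluster in the ZC3H7A library, all 3 clusters in coding sequence. Its ratio on the log2 scale was 0.35 (-0.24 to 0.94) with reads and -0.18 (-1.53 to 1.41) with distinct reads, so its direction was not resolved at this depth.

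Of the deadenylase genes, PAN3 was the member with the largest ratio towards the ZC3H7B library. PAN3 encodes the RNA-binding partner of the nuclease PAN2 and recruits it to poly(A) through PABPC1. It had 172 reads in 11 clusters in the ZC3H7B library and 45 reads in 2 clusters in the ZC3H7A library. Its log2 ratio was 2.43 (1.95 to 2.93), or 5.38-fold, and 2.35 (1.08 to 4.00) with distinct reads, of which it had 106 in the ZC3H7B library and 5 in the ZC3H7A library. With mean reads per cluster it was 0.94 (0.46 to 1.45) and with clusters 1.53 (-0.66 to 4.75), neither wholly beyond 2-fold. The 3′ UTR held 10 of its 11 clusters (90.9%, 58.7 to 99.8%) in the ZC3H7B library and 2 of 2 in the ZC3H7A library.

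PARN, a deadenylase that also matures small nucleolar and telomerase RNAs, had 34 reads in 3 clusters in the ZC3H7B library and 45 reads in 2 clusters in the ZC3H7A library. On the log2 scale its ratio was 0.09 (-0.60 to 0.76) with reads and -0.47 (-1.87 to 1.15) with distinct reads, again without a resolved direction. All 3 clusters in the ZC3H7B library and 1 of 2 in the ZC3H7A library lay in coding sequence, and no cluster of PARN lay in a UTR.

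TOB1 and TOB2, paralogous adaptors that restrain cell proliferation, lay on opposite sides of the median gene with reads and with distinct reads. TOB1 had 322 reads in 11 clusters in the ZC3H7B library and 978 reads in 6 clusters in the ZC3H7A library. TOB1 had a log2 ratio of -1.11 (-1.30 to -0.93) with reads and -0.72 (-1.16 to -0.27) with distinct reads. TOB2 had 891 reads in 16 clusters in the ZC3H7B library and 615 reads in 13 clusters in the ZC3H7A library. TOB2 had a log2 ratio of 1.03 (0.88 to 1.18) with reads and 0.94 (0.55 to 1.35) with distinct reads. Neither interval lay wholly beyond 2-fold. Because the scaling cancels, the difference of TOB2 minus TOB1 needs no choice of scaling, and it was 2.14 on the log2 scale with reads, 1.66 with distinct reads and 2.71 with mean reads per cluster. In clusters it was -0.57, so the number of clusters did not show the same order. No interval was computed for this difference, and how often other pairs of genes differ as much was not counted.

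Reads were spread unevenly over the TOB2 clusters in the ZC3H7B library. There the median cluster held 11 reads while the mean was 55.7, so the upper 8 of its 16 clusters held at least 803 of the 891 reads (90.1%). In the ZC3H7A library the median was 42 and the mean 47.3. For TOB1 the ZC3H7B library had a median of 15 and a mean of 29.3 reads per cluster, and the ZC3H7A library a median of 167 and a mean of 163. The mean was over 1.5 times the median for 6 of the 9 genes in the ZC3H7B library and for 1, PABPN1, in the ZC3H7A library. The share of all genes that do so was not counted. All genes had a median of 7 clusters in the ZC3H7B library and 4 in the ZC3H7A library. A gene with 1 cluster, such as PAIP1 in the ZC3H7A library, cannot pass. These counts are therefore not read as a trait of the 9 genes.

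Both TOB genes were bound in the 3′ UTR and coding sequence. TOB2 had 15 of 16 clusters in the 3′ UTR (93.8%, 69.8 to 99.8%) in the ZC3H7B library and 10 of 13 (76.9%, 46.2 to 95.0%) in the ZC3H7A library. TOB1 had 7 of 11 (63.6%, 30.8 to 89.1%) and 2 of 6 (33.3%, 4.33 to 77.7%), with 4 clusters in coding sequence in each library. Pooled, the pair had 81.5% of clusters in the 3′ UTR (61.9 to 93.7%) in the ZC3H7B library and 63.2% (38.4 to 83.7%) in the ZC3H7A library, against 6 of 44 (13.6%, 5.17 to 27.4%) and 1 of 20 (0.127 to 24.9%) for PABPC1 and PABPC4 in the same libraries. The intervals of these 2 pairs did not overlap in either library. Clusters of 1 gene come from 1 transcript and are not independent samples of a class.

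**Figure D3:**
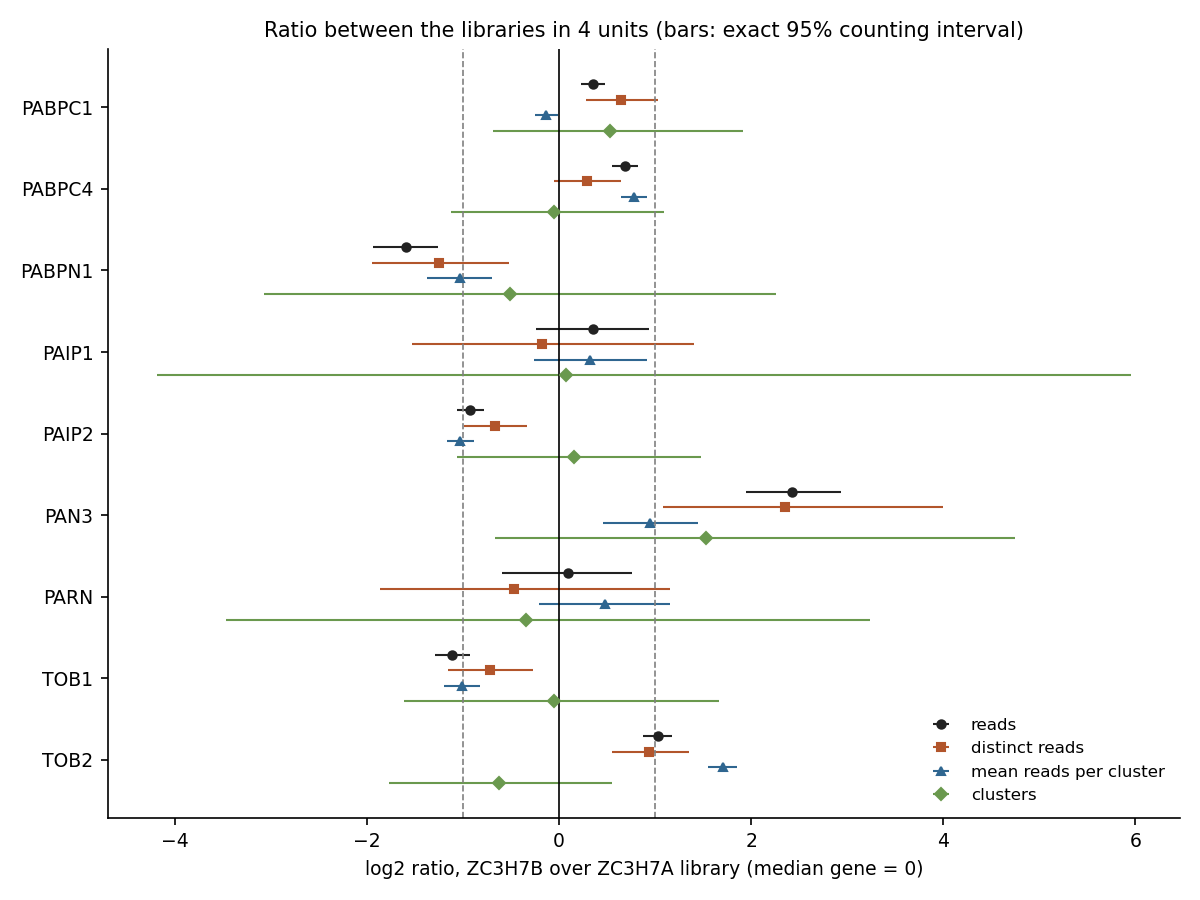
Log2 ratio of each gene, ZC3H7B over ZC3H7A library, in 4 units, with exact 95% counting intervals; dashed lines mark 2-fold. PAN3 lay beyond 2-fold with reads and distinct reads, PABPN1 with reads, and TOB2 with mean reads per cluster (1.70, 1.55 to 1.85), and no gene did so with clusters.

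Region shares moved between the libraries in different directions among the 9 genes. For coding sequence, 4 genes had the larger share in the ZC3H7B library, 4 in the ZC3H7A library and 1 an equal share, beside 23.6% and 60.4% of 5988 genes with at least 20 reads in both. The genes with a lower coding share in the ZC3H7B library were PABPC1, PAIP2, TOB1 and TOB2, with differences of -35.2, -33.9, -30.3 and -9.13 percentage points. The 4 others were PABPC4 (1.52 points), PAN3 (9.09 points), PABPN1 (25.0 points) and PARN (50.0 points), the last 3 with at most 3 clusters in the ZC3H7A library. For the 3′ UTR, 5 genes had the larger share in the ZC3H7B library, 2 in the ZC3H7A library and 2 an equal share, beside 62.8% and 18.4% of the 5988 genes. Pooled over all clusters of the 9 genes, coding sequence held 35 of 110 (31.8%) in the ZC3H7B library and 25 of 56 (44.6%) in the ZC3H7A library, a difference of -12.8 points (-29.1 to 3.56). The 3′ UTR held 47 of 110 (42.7%, 33.3 to 52.5%) in the ZC3H7B library and 20 of 56 (35.7%, 23.4 to 49.6%) in the ZC3H7A library, a difference of 7.01 points (-9.78 to 22.8). Both intervals include 0, and they treat clusters of 1 gene as independent. In the ZC3H7B library the 3′ UTR share of the 9 genes lay below that of all other genes, 55.8% (55.5 to 56.2%). It did not do so without PABPC1 and PABPC4, as the other 7 genes had 41 of 66 clusters there (62.1%, 49.3 to 73.8%). In the ZC3H7A library the interval of the 9 genes held the share of all other genes, 39.8%.

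T-to-C conversion was high on all 9 genes. Averaged over the clusters of a gene, the share of converted reads ran between 85.2% (PAN3) and 93.4% (PAIP1) in the ZC3H7B library, where the median gene stood at 91.1%, and between 79.7% (PABPC1) and 100% (PAN3) in the ZC3H7A library, where it stood at 97.4%. In the ZC3H7B library 8 of the 9 genes lay below the median gene and in the ZC3H7A library 7 of 9. PABPC1 was low in the ZC3H7A library, below the value under which 5% of its genes lay (80.8%), while its median cluster there stood at 90%. In the ZC3H7B library PABPC1 had 88.9%. PAIP2 was the other gene with less conversion in the ZC3H7A library (89.7% in the ZC3H7B library and 86.4% in the ZC3H7A library). PAN3 reached 100% in the ZC3H7A library on 5 distinct reads. The rules by which clusters were called are not given, and a minimum on conversion would raise all these values.

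**Figure D4:**
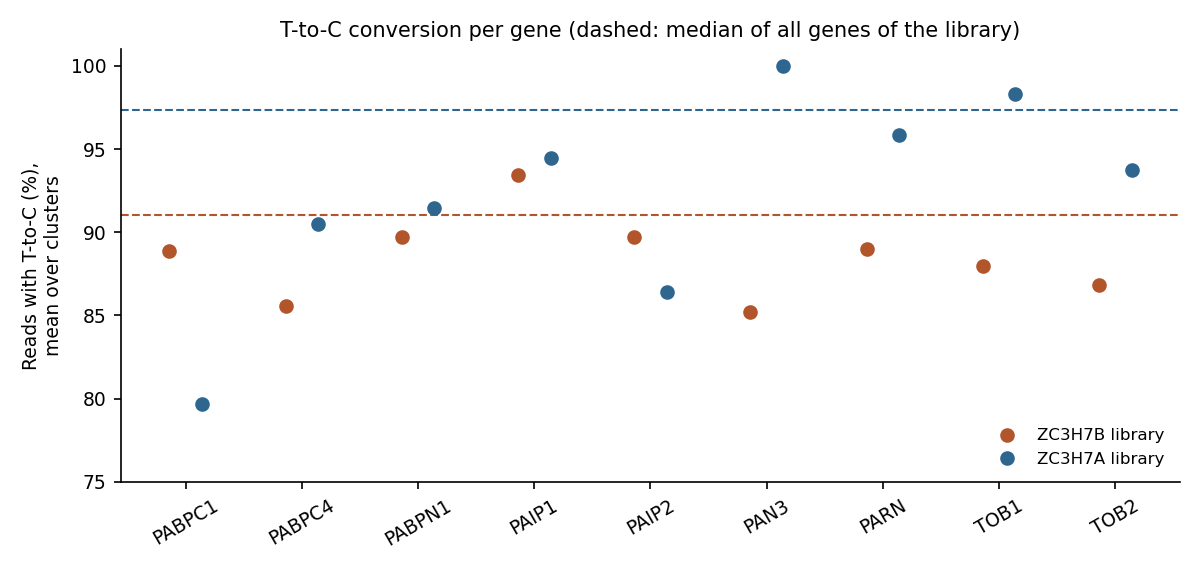
Percentage of reads carrying T-to-C, averaged over the clusters of each gene, with 1 point for each library; the axis starts at 75%. Dashed lines mark the median gene of each library, 91.1% for ZC3H7B and 97.4% for ZC3H7A, and PABPC1 in the ZC3H7A library is lowest at 79.7%.

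Reads were copied to different extents on the 9 genes. Each distinct read was counted 1.62 (PAN3) to 2.33 (PABPC1) times in the ZC3H7B library and 7.50 (PARN) to 16.7 (PABPC1) times in the ZC3H7A library. PABPC1 had the most copies in both, and TOB1 (2.09 in the ZC3H7B library and 16.0 in the ZC3H7A library) had nearly as many in the ZC3H7A library. Among the 9 genes, ratios made of reads and of distinct reads lay farthest apart for PARN and PAIP1, which had 6 distinct reads each in the ZC3H7A library.

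Relatives of the 9 genes were looked up next. Of 13 paralogues, 6 were listed in the ZC3H7B library and 5 in the ZC3H7A library, and of 5 compared, 3 were higher in the ZC3H7B library and 0 in the ZC3H7A library, with reads and with distinct reads alike, beside 18.2% and 7.28% of all genes on the ZC3H7B side in these units. By mean reads per cluster, or by clusters, 0 of the 5 passed. Their median log2 ratio of reads was 1.61. PAIP2B, the close relative of PAIP2, had 518 reads in 26 clusters in the ZC3H7B library and 51 reads in 2 clusters in the ZC3H7A library, at 3.84 (3.42 to 4.28). The difference of PAIP2B minus PAIP2 was 4.76 with reads and 4.36 with distinct reads, again without an interval or a count over other pairs. The 3′ UTR held 25 of the 26 PAIP2B clusters in the ZC3H7B library and 2 of 2 in the ZC3H7A library, without a cluster in coding sequence. Of the antiproliferative BTG family, to which TOB1 and TOB2 are related, BTG2 stood at 1.61 (1.32 to 1.91), BTG3 at 2.26 (1.89 to 2.63) and BTG1 at 0.21 (-0.02 to 0.45). All 15 BTG2 clusters in the ZC3H7B library and all 3 in the ZC3H7A library lay in the 3′ UTR.

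Genes whose products bind PABPC1, in most cases through a PAM2-type motif, had a median log2 ratio of 1.00, and 5 of 11 compared were higher in the ZC3H7B library and 1 in the ZC3H7A library, beside 18.2% and 18.0% of all genes. TNRC6B and TNRC6C, scaffolds of microRNA silencing, stood at 2.62 (2.46 to 2.79) and 4.37 (3.68 to 5.14), LARP1, a regulator of ribosomal protein messenger RNAs, at 1.60, the ubiquitin ligase gene MKRN1 at 1.61 and the deubiquitinase gene USP10 at 1.62. GSPT1, the termination factor eRF3a, went the other way at -1.54 (-1.62 to -1.45). With distinct reads TNRC6B and TNRC6C were the 2 still beyond 2-fold, beside 7.28% of all genes on that side. Of 10 CCR4-NOT subunit genes compared, 1 was higher in the ZC3H7B library, CNOT10 at 2.14 (1.63 to 2.68), and 0 in the ZC3H7A library, against the same shares of all genes. With distinct reads CNOT10 stood at 1.14 (-0.07 to 2.65), and 0 of the 10 passed. The scaffold gene CNOT1 stood at 0.70 (0.60 to 0.79). Of the catalytic subunit genes, CNOT6 and CNOT8 stood at 0.43 and 0.72, and CNOT7 and CNOT6L at 0.08 (-0.08 to 0.24) and 0.27 (-0.01 to 0.55).

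Of 9 genes of enzymes that make or extend tails, 2 were higher in the ZC3H7B library and 1 in the ZC3H7A library, also with distinct reads. Over all genes these shares were 18.2% and 18.0% with reads, and 7.28% and 10.1% with distinct reads. The same shares apply to the 2 lists that follow. FAM46C and PAPD7 stood at 2.86 (2.53 to 3.20) and 3.32 (2.88 to 3.79), and the uridylyl transferase gene ZCCHC6 at -4.36 (-6.00 to -3.10), with 5 reads in the ZC3H7B library and 144 in the ZC3H7A library. The main nuclear poly(A) polymerase gene PAPOLA stood at 0.06 (-0.10 to 0.22) and PAPD5 at -0.08. Of 15 cleavage and polyadenylation factor genes, 1 was higher in the ZC3H7B library (SYMPK, 2.45) and 2 in the ZC3H7A library (CSTF2T, -1.88, and CLP1, -2.02), while NUDT21 stood at -0.06 and CPSF6 at -0.75. CLP1 was the 1 of these also beyond 2-fold with distinct reads, at -2.26. Of 7 initiation factor genes, EIF4B (1.85) and EIF4G3 (2.07) were higher in the ZC3H7B library and 0 in the ZC3H7A library. With distinct reads they stood at 1.41 (0.78 to 2.11) and 1.27 (0.28 to 2.44), and 0 of the 7 passed. EIF4A2, a helicase gene, stood at -0.61 and EIF4G2 at 0.24 with reads, the list's genes with the most reads. EIF4G1, which encodes the main partner of PABPC1 at the cap, stood at -0.45 (-0.54 to -0.36). For the last 4 lists the medians were 0.49, 0.06, -0.09 and -0.38, in the order given. Several genes in these lists were named because they passed, after their values were seen.

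**Figure D5:**
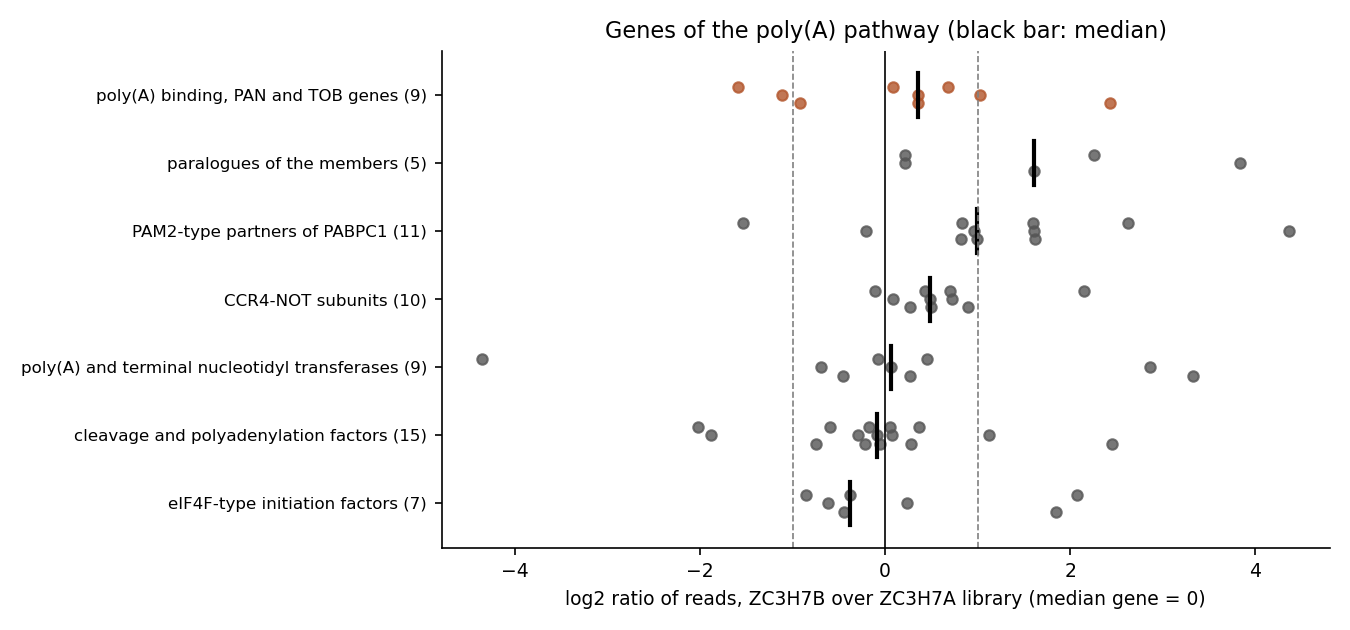
Log2 ratio of reads, ZC3H7B over ZC3H7A library, for the 9 listed genes (top) and 6 lists of other genes of the poly(A) pathway, with 1 point for each gene and a black bar at the median; the number compared is in brackets. The paralogues and the PABPC1 partners have medians of 1.61 and 1.00, and the other lists lie between -0.38 and 0.49.

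The genes with the most similar spread of clusters over 6 regions in both libraries were sought for PABPC1 and PAIP2, the 2 members with the most reads summed over both libraries. Among 1527 genes with at least 10 clusters in each library, the nearest to PABPC1 were USP1, SLC1A5 and IVNS1ABP, at distances of 31.0, 31.7 and 31.9 percentage points over 12 shares (median gene 75.3). The nearest to PAIP2 were SLC16A1 (23.3), DSN1 (27.3) and SLC1A5 (30.4). USP1 had 1 cluster in the 5′ UTR and 6 in introns among 41 in the ZC3H7B library, and 4 and 3 among 33 in the ZC3H7A library. PABPC1 had 8 clusters and PAIP2 had 9 in the ZC3H7A library, so 1 cluster moves a share by over 10 points.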

How the data were processed

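PAR-CLIP was done on 1 library for each protein, with groups taken from the sample titles. Genome build hg19 and the tools STAR 2.5.2a, Bowtie and cutadapt are named in the submitters' processing notes. How clusters were called is not given in the sources used here. Per the file headers, the authors' counts give clusters, reads and distinct reads per gene, and clusters in each region. The deposited T-to-C fraction is a median over clusters. A deposited sum of fractions and a deposited median of reads per cluster were used as scores, as were the numbers of clusters at start and stop codons. The deposited log10 specificity score was not used. The exon column was read as coding sequence. In rows with 1 cluster it was filled in all 387 coding rows of the ZC3H7B library and all 730 of the ZC3H7A library, and in 0 others.

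Rows naming repeats or classes of small RNA were left out (407 of 9566 for ZC3H7B and 282 of 8486 for ZC3H7A). Ratios have exact conditional binomial intervals and shares have Clopper-Pearson intervals, both at 95%. An interval for a difference of shares was combined from those of both shares. A limit for a count of 0 is 3 counts of the total. The distance of region profiles is Euclidean. The members and lists were chosen with earlier results of these data known. Genes named are all members, those with the most reads in each list, those in counts of 5 or fewer and the catalytic CCR4-NOT subunits. Python 3.11.15, pandas 2.3.3, numpy 2.4.6, scipy 1.17.1, matplotlib 3.10.9 and, for TMM scaling only, edgeR 4.0.16 in R 4.3.3 were used. No sequences are printed, because the values are sums per gene without positions of clusters.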

Additional observations from a re-analysis of the deposited data

How the results depend on the processing

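Of 62 ratios of single genes under other units, scalings and minimums, 48 kept their direction and their side of 2-fold, 5 kept only the direction and no longer lay beyond 2-fold, 2 (both TOB2) came to lie beyond it and 7 changed sign. The 62 include a setting with genes missing from a library kept at 0, which cannot change the ratio of a member. Library totals, TMM and the minimum of 100 reads shift all genes by the same amount. The count of 48 is therefore no measure of robustness. The sign changes were PABPC1 with mean reads per cluster (-0.13), PAIP1 with distinct reads (-0.18), PARN with distinct reads (-0.47) and, with the number of clusters, PABPC4 (-0.052), PAIP2 (0.15), PARN (-0.34) and TOB2 (-0.63). The cause was not tested. The median log2 ratio of the 9 genes, 0.35, became -0.18 with distinct reads, -0.052 with clusters, 0.33 with mean reads per cluster, 0.51 with library totals, 0.32 with TMM and 0.33 with at least 100 reads summed. Library totals place the median gene at 0.16. Genes higher in the ZC3H7B library numbered 0 with clusters and 2 with library totals, against 1, and the 1 found with mean reads per cluster was TOB2, not PAN3. Genes higher in the ZC3H7A library numbered 0 with distinct reads, mean reads per cluster or clusters, against 1. The pooled differences of region shares kept their sign when unnamed clusters or PABPC4 were left out (coding -13.0 and -15.9 points, 3′ UTR 7.72 and 5.68 points) and as a mean over 6 genes with at least 3 clusters (-13.7 and 7.71 points). These settings reuse most of the same clusters, so they are a weak check of the differences. No paired analysis was possible because each protein had 1 library. PAIP1, PARN, PABPN1 and PAN3 had 1 to 4 clusters in at least 1 library, which limits their shares.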
